A study of Mus musculus with 4 samples.

Results

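Preadipocyte and fibroblast marker genes are a set of 10 genes by which the stromal cells of fat are recognised. They were chosen by the gene name that the array's annotation gives each probe. Under this rule 9 of the 10 were found, and the gene listed as Pref1 was found under its current symbol Dlk1. They stand among 27617 genes with a probe and 17736 genes that were tested, and all 16 of their probes were tested. Dpp4, Pi16, Cd34 and Ly6a were taken as early progenitor genes, Zfp423 and Dlk1 as committed preadipocyte genes, and Pdgfra, Pdgfrb, Gsn and Thy1 as general fibroblast and mesenchyme genes.

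The samples were white adipose tissue of female C57BL/6 mice, an inbred strain with no engineered allele named, given a high fat diet (HFD, High fat diet 32) or a low fat diet (LFD, the chow CE2). The mice were 8 weeks old when feeding started and were fed for 18 weeks, and each diet had 2 arrays. Each sample is described as mixed from 3 mice. No fat depot is named, and it is not said whether the replicates of a diet were separate mixtures, so p-values cover only the spread among these 4 samples and that spread could be technical.

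White fat holds lipid-filled adipocytes within a stroma of fibroblast-like progenitors, vessels and immune cells, and new adipocytes come from the progenitors. Work in mice describes an early progenitor marked by Dpp4 and Pi16, a committed preadipocyte, and a further population, marked by the surface protein CD142, that restrains adipocyte formation in some assays. Commitment is promoted by transcription factors such as Zfp423 and is held back by Pref-1, the membrane protein encoded by Dlk1, which preadipocytes lose as they become adipocytes. The platelet-derived growth factor (PDGF) receptors Pdgfra and Pdgfrb mark fibroblast-like and perivascular cells and pass on growth signals.

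For Pdgfra, Dpp4, Zfp423 and Dlk1 more than 1 probe read the transcript, and the readings of each are given below. A probe inside the transcript is shown for each, 5′ to 3′ in lower case, with the build mm9 coordinates given by the files. The Pdgfra probe lies at chr5:75559613-75559672 on the plus strand, and the Dlk1 probe at chr12:110698428-110698487 on the plus strand. The Dpp4 probe has its 60 bases spread over 2067 bases at chr2:62192636-62194702 on the minus strand, and the Zfp423 probe over 6607 bases at chr8:90297522-90304128 on the minus strand, so both bridge a gap in the genome as a spliced transcript does. No annotation of this build was used here to place them in exons.
Pdgfra probe: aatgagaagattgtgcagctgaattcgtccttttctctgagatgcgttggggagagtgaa
Dpp4 probe: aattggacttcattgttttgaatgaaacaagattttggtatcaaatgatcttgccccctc
Zfp423 probe: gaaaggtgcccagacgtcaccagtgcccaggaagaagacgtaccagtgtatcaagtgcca
Dlk1 probe: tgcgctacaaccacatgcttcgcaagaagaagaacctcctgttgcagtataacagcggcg

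Dpp4, Dlk1 and Pdgfra were lower in HFD fat, Zfp423 was higher, and the other 6 genes missed the threshold of an adjusted p of 0.05 in limma. Lower genes were thus 3 of 10, against 5.61% of all 17736 genes tested. Higher genes were 1 of 10, against 5.75% of all genes, which makes 4 of 10 in either direction, against 11.4%. The 10 genes were chosen with earlier results of these data known, so these shares are a description only. Both HFD arrays lay below both LFD arrays for 4 of the 10 genes, against 32.7% of all genes, and above them for 2 of 10, against 36.2%. The diets thus did not overlap for 6 of 10 genes, against 68.9% of all genes. The median log2 change, HFD minus LFD, was -0.12 over the 10 genes and 0.02 over all genes. With each array scaled to its median in place of its 75th percentile, the counts over all genes were 852 higher and 1334 lower, against 1019 higher and 995 lower, and the members' counts were again 1 and 3.

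**Figure D1:**
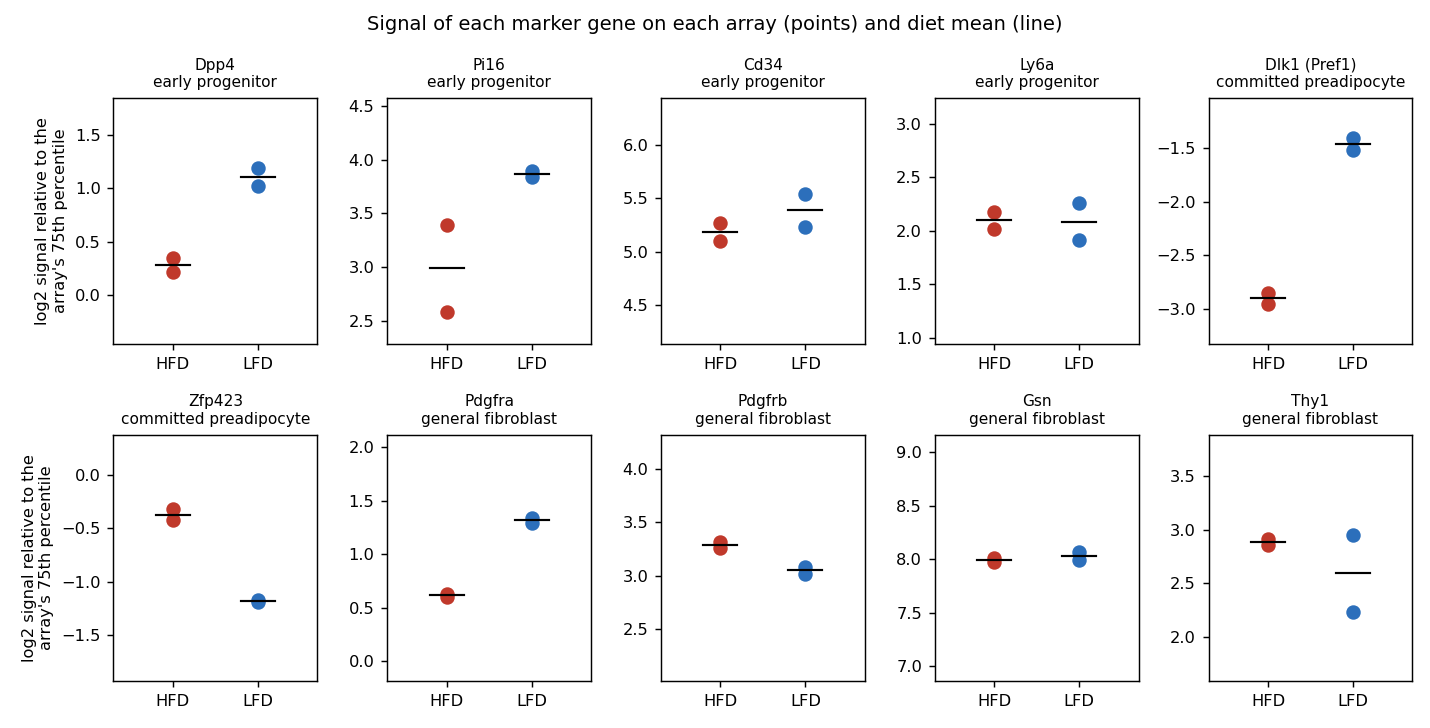
Log2 signal of each marker gene on each array, relative to the 75th percentile of that array (vertical axis, log2 units), by the brightest probe of the gene. HFD arrays stand left of LFD arrays, each point is 1 array and the bar is the mean of 2. Both HFD points lie below both LFD points for Dpp4, Pi16, Dlk1 and Pdgfra and above them for Zfp423 and Pdgfrb.

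Signals below are log2 values relative to the 75th percentile of the array, so a value of 0 is as bright as that percentile, and the level of 1 probe is not set against that of another. Probes well above background numbered 21313 to 27246 on the HFD arrays and 26419 to 27938 on the LFD arrays. HFD replicate 2 was the lowest of these and had the brightest negative control spots, at 109.5, against 63.5 to 97.0 on the other arrays. Log2 signals correlated across the 26054 tested probes with r = 0.992 between the HFD arrays and 0.989 between the LFD arrays, and with r = 0.965 to 0.971 between diets; probes are not independent replicates. The brightest probe of every marker gene was well above background on all 4 arrays.

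Among the early progenitor genes, Dpp4 fell and the other 3 did not pass the test. Dpp4 encodes a membrane peptidase that trims incretins and chemokines, and it names the early progenitor. Its brightest probe, at chr2:62170062-62170121, read 0.35 and 0.22 in HFD fat, against 1.02 and 1.19 in LFD fat. The groups did not overlap, and the arrays of each diet lay close together. The log2 change was -0.82 (SE 0.11, 95% interval -1.13 to -0.51, n = 2 per diet), a level 1.77-fold lower in HFD fat (limma, adjusted p = 0.0307). The call was lost when any 1 array was left out, with an adjusted p of 0.105 and 0.166 without HFD replicates 1 and 2, and 0.0633 and 0.0623 without LFD replicates 1 and 2. In this bulk RNA, fewer cells of a type and less RNA per cell cannot be told apart.

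Dpp4 had 2 further probes. A probe at chr2:62170102-62170161 shares 20 bases with the brightest probe and so is no independent reading; its change was -0.87 (adjusted p = 0.0269). The spliced probe shown above lies 22574 bases from the brightest one by start and shares no base with it. That probe read -4.93 and -5.51 in HFD fat, where it was not well above background on either array, against -3.77 and -3.53 in LFD fat. It could enter the test only through the LFD arrays, where it was brighter, so its direction adds no support. No size is given for it, because both LFD readings lay below -3.18, the dimmest signal that cleared background in HFD replicate 2.

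Pi16, which encodes a CAP-domain peptidase inhibitor of the same early progenitors, read 2.58 and 3.39 in HFD fat, against 3.84 and 3.90 in LFD fat. Both HFD arrays were below both LFD arrays, but they lay further apart than the LFD arrays did. The change was -0.88 with an SE of 0.29 and a 95% interval of -1.68 to -0.08 (limma, adjusted p = 0.125). It was about as large as that of Dpp4 and did not pass the test. Without HFD replicate 1 it was -0.48, and without HFD replicate 2 it was -1.29.

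Cd34, a sialomucin of progenitors and of endothelium, read 5.11 and 5.27 in HFD fat, against 5.54 and 5.23 in LFD fat. The groups overlapped, and the change was -0.20 (95% interval -0.61 to 0.21, limma, adjusted p = 0.398). Ly6a, which encodes the surface antigen Sca-1, read 2.02 and 2.17 in HFD fat, against 2.26 and 1.91 in LFD fat. Both HFD values lay between the LFD values, and the change was 0.01 (95% interval -0.42 to 0.44, limma, adjusted p = 0.963). Ly6a has near copies in its gene cluster, so its probe may also read their transcripts.

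Over the 4 early progenitor genes the median change was -0.51, with 1 lower and 0 higher. Beside these counts and those of every list below, 5.61% of all genes tested were lower and 5.75% were higher. A list of 15 other genes described in the DPP4+ progenitor gave 13 that were tested, of which 2 fell, none rose, and the median was -0.32. That median was -0.12 without LFD replicate 1 and -0.52 without LFD replicate 2. Pcsk6, a proprotein convertase, read 3.66 and 4.0 in HFD fat, against 4.80 and 4.70 in LFD fat (change -0.92, limma, adjusted p = 0.0400). Sema3c, a secreted semaphorin, read -1.99 and -2.12 in HFD fat, against -1.09 and -1.34 in LFD fat (change -0.84, adjusted p = 0.0380). For both genes, named for their small p, the HFD arrays were below the LFD arrays, as for 32.7% of all genes tested.

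The committed preadipocyte genes Dlk1 and Zfp423 moved in opposite directions, and both passed the test. For Dlk1, the probe at chr12:110698667-110698703, which the array's annotation describes as pref-1, read -2.85 and -2.95 in HFD fat, against -1.40 and -1.52 in LFD fat. The groups stood well apart. The change was -1.44 (SE 0.10, 95% interval -1.72 to -1.16), 2.71-fold lower in HFD fat (limma, adjusted p = 0.0146). In HFD replicate 2 the probe lay close to the dimmest signal that cleared background there, -3.18, which limits this fold change.

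The other Dlk1 probe, shown above and starting 239 bases before the first, read -3.12 and -2.86 in HFD fat, against -2.74 and -2.82 in LFD fat. All 4 arrays lay near each other, and the change of -0.21 missed the threshold (95% interval -0.56 to 0.14, limma, adjusted p = 0.309). This other probe was dim on every array, which limits what its small change can show. The fall of Dlk1 is thus seen in 1 probe, the first. The coordinates of that probe cover 37 bases of its 60. With the mean of both probes the change was -0.82 (adjusted p = 0.0246), and with another background correction, normexp, it was -0.87 (adjusted p = 0.0077). The adjusted p was 0.0601 without HFD replicate 1 and 0.0819 without HFD replicate 2, which lost the call, and 0.0451 and 0.0480 without LFD replicates 1 and 2, which did not.

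Zfp423, a zinc finger factor that binds SMAD and EBF proteins and promotes commitment to the adipocyte lineage, was the only one of the 10 genes to rise. The spliced probe shown above read -0.32 and -0.42 in HFD fat, against -1.17 and -1.19 in LFD fat. The groups did not overlap. The change was 0.80 (SE 0.10, 95% interval 0.54 to 1.07), 1.75-fold higher in HFD fat (limma, adjusted p = 0.0246). A second probe, 111423 bases away by start, read -0.53 and -0.52 in HFD fat, against -1.18 in both LFD samples, a change of 0.66 (adjusted p = 0.0300). Both probes thus passed the test in the same direction. Leaving out any 1 array lost the call of the first, with an adjusted p of 0.115 and 0.132 without HFD replicates 1 and 2, and 0.0667 and 0.0573 without LFD replicates 1 and 2.

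**Figure D2:**
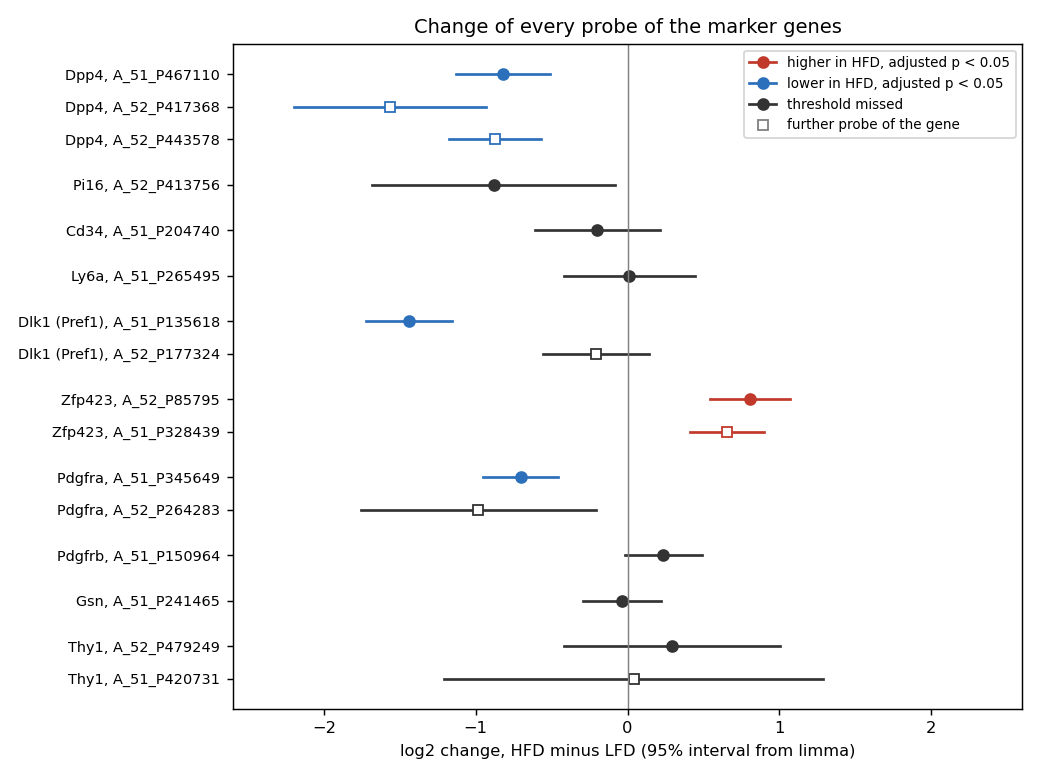
Log2 change of every probe of the marker genes, HFD minus LFD (horizontal axis), with the 95% interval from limma; filled points are the brightest probe of a gene and open squares its further probes. The 2 Zfp423 probes lie right of 0 and the 3 Dpp4 probes left of it (A_52_P417368 of Dpp4 and A_52_P264283 of Pdgfra did not clear background in HFD fat), while the 2 Dlk1 probes lie at -1.44 and -0.21.

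A list of 13 other genes of committed preadipocytes gave 2 higher, 1 lower and a median of 0.10, or 0.19 without HFD replicate 1. Col4a1 and Col4a2, the chains of basement membrane collagen IV, rose. Col4a1 read 4.39 and 4.42 in HFD fat, against 3.43 and 3.39 in LFD fat, and its change was 1.0 (limma, adjusted p = 0.0181). The change of Col4a2 was 1.14 (adjusted p = 0.0212). Ebf2, a transcription factor of preadipocytes and of thermogenic fat, read 0.36 and 0.55 in HFD fat, against 1.11 and 1.02 in LFD fat, and fell by 0.61 (adjusted p = 0.0490). Its groups did not overlap, as for 68.9% of all genes tested.

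Of 12 tested partners and opponents of Zfp423, none was higher and 1, Ebf2, was lower, and the median was -0.13. Bmpr2, a receptor of the bone morphogenetic proteins, changed by -0.08 (adjusted p = 0.570). Smad4, the shared SMAD that carries their signal to the nucleus, changed by -0.07 (adjusted p = 0.606), so both missed the threshold. Wisp2, a secreted protein whose intracellular form binds Zfp423, is named after its values were seen. It read 1.14 and 0.93 in HFD fat, against -3.17 and -0.56 in LFD fat. Its HFD arrays were above its LFD arrays, which lay far apart, and its change of 2.90 (SE 0.90) missed the threshold (limma, adjusted p = 0.111).

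Of 9 tested genes around Pref-1, 1 fell, none rose and the median was 0.12, or -0.01 without LFD replicate 2. Sox9, a transcription factor that Pref-1 raises in mouse preadipocytes, read -2.92 and -3.66 in HFD fat, against -1.74 and -1.58 in LFD fat. It was well above background on 1 of the 2 HFD arrays and entered the test only through the LFD arrays, so its call is that of a gene near background and no size is given. Meg3, the maternally expressed non-coding gene beside Dlk1 at the same imprinted locus, changed by -0.38 (adjusted p = 0.175). Fn1, the matrix protein fibronectin to which Pref-1 binds, changed by 0.12 (adjusted p = 0.568).

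The CD142+ regulatory progenitor was represented by 10 tested genes, of which 4 fell and 1 rose, with a median of -0.58. F3, which encodes CD142 itself, the tissue factor of coagulation, read 0.36 and 0.19 in HFD fat, against 1.42 and 1.58 in LFD fat, 2.35-fold lower (limma, adjusted p = 0.0197). Gdf10, a secreted protein of the TGF-beta family, read -1.37 and -1.22 in HFD fat, against 0.19 and 0.07 in LFD fat, 2.69-fold lower (adjusted p = 0.0162). Vit, a matrix protein, read 0.52 and 0.72 in HFD fat, against 1.96 and 1.73 in LFD fat, 2.34-fold lower (adjusted p = 0.0233). These 3 genes, named for their small p, showed no overlap between diets, as did 68.9% of all genes tested. Abcg1, a cholesterol exporter that macrophages also express, went the other way, at 2.97 and 2.96 in HFD fat, against 0.68 and 0.96 in LFD fat, 4.43-fold higher (adjusted p = 0.0137).

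Among the general fibroblast and mesenchyme genes Pdgfra fell, and Pdgfrb, Gsn and Thy1 did not pass the test; the median over the 4 was 0.10. Pdgfra, the receptor that marks fibroblast-like progenitors in fat, was read by a probe with 10 spots at chr5:75593888-75593947. It read 0.62 and 0.60 in HFD fat, against 1.29 and 1.34 in LFD fat. The arrays of each diet nearly coincided and the groups did not overlap. The change was -0.70 (SE 0.09, 95% interval -0.95 to -0.46), 1.63-fold lower in HFD fat (limma, adjusted p = 0.0276). Leaving out any 1 array lost the call, with an adjusted p of 0.125 and 0.167 without HFD replicates 1 and 2, and 0.0678 and 0.0594 without LFD replicates 1 and 2.

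The Pdgfra probe shown above, 34275 bases upstream by start, read -4.62 and -5.40 in HFD fat, where it was not well above background, against -4.06 and -4.00 in LFD fat. No difference is given for it, because the LFD level did not exceed the HFD background. The mean of both probes, which takes in this dim one, missed the threshold for Pdgfra (limma, adjusted p = 0.0537).

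Pdgfrb, the receptor of perivascular cells and of many preadipocytes, read 3.26 and 3.31 in HFD fat, against 3.08 and 3.02 in LFD fat. The HFD arrays were above the LFD arrays by a small margin, and the change of 0.24 missed the threshold (95% interval -0.02 to 0.49, limma, adjusted p = 0.166). Around the receptors, 12 PDGF ligands and signalling genes gave 1 lower, none higher and a median of 0.14. The lower gene was Pik3r1, a regulatory subunit of phosphoinositide 3-kinase that also serves the insulin receptor, at 0.59 and 0.60 in HFD fat, against 1.89 in both LFD samples (change -1.30, limma, adjusted p = 0.0142). Its groups stood clearly apart, while 68.9% of all genes tested showed no overlap between diets. Lrp1, a co-receptor, changed by 0.29 (adjusted p = 0.119), and Ptpn11, a phosphatase of the pathway, by 0.31 (adjusted p = 0.160).

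Gsn, the actin-severing protein gelsolin, had the smallest change of the 4 general genes. It read 7.97 and 8.01 in HFD fat, against 7.99 and 8.07 in LFD fat. The groups overlapped, and the change was -0.04 (95% interval -0.29 to 0.22, limma, adjusted p = 0.805). Of 9 tested members of the gelsolin family and actin regulators, 4 rose, none fell and the median was 0.35. Capg, a capping protein abundant in macrophages, read 3.55 and 3.44 in HFD fat, against 1.80 and 1.60 in LFD fat (change 1.79, adjusted p = 0.0142). Pfn1 and Cfl1, which turn over actin in most cells, changed by 0.82 (adjusted p = 0.0263) and 0.60 (adjusted p = 0.0346). Vil1, villin of epithelia, changed by 0.65 (adjusted p = 0.0418).

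Thy1, a surface glycoprotein of fibroblasts and of mouse T cells, read 2.85 and 2.91 in HFD fat, against 2.95 and 2.23 in LFD fat. LFD replicate 2 was the low array and the groups overlapped. The change was 0.29 (95% interval -0.42 to 1.01, limma, adjusted p = 0.467), and without LFD replicate 2 it was -0.07. A second probe read -1.56 and -1.22 in HFD fat, against -0.79 and -2.06 in LFD fat, with LFD replicate 2 again the lowest. T cell markers moved between the same arrays: 7 of 9 were tested, none passed the test, and their summed level was 1.75 and 3.10 times the 75th percentile in HFD fat, against 4.93 and 1.32 in LFD fat. The part of T cells in the Thy1 values was not tested.

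**Figure D3:**
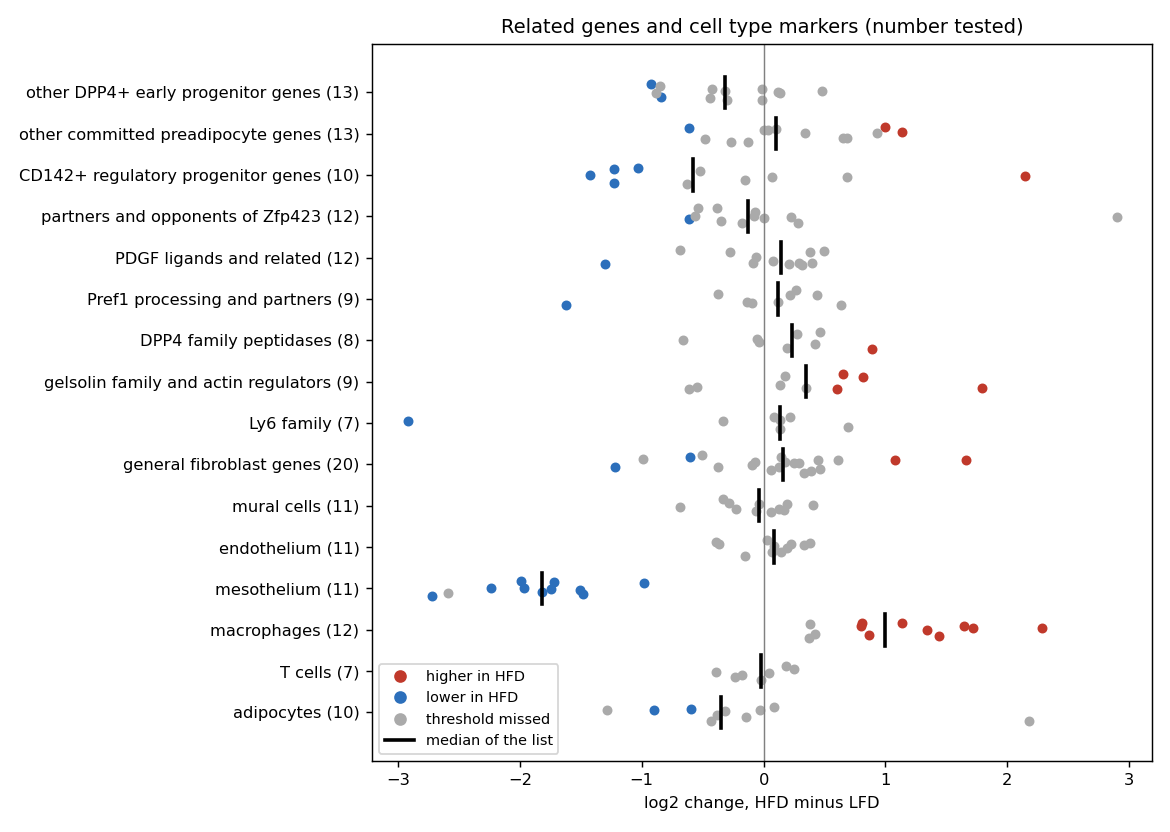
Log2 change of each tested gene in the lists of related genes and cell type markers, HFD minus LFD (horizontal axis), with 1 row per list, the number tested in brackets and a bar at the list's median. The relatives of Cd34 and the CAP-domain proteins related to Pi16 are not drawn. Mesothelial genes lie far left with a median of -1.82, macrophage genes right with a median of 1.0, and the progenitor lists between them.

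Of 8 tested peptidases and partners of the DPP4 family, 1 rose: Ada, adenosine deaminase, which binds DPP4 in humans, read 0.47 and 0.46 in HFD fat, against -0.28 and -0.56 in LFD fat (change 0.89, limma, adjusted p = 0.0333). Dpp7 changed by 0.19 (adjusted p = 0.314) and Dpp8 by -0.05 (adjusted p = 0.757). Of 7 tested Ly6 genes, Ly6d alone passed, at -1.66 and -0.37 in HFD fat, against 2.19 and 1.62 in LFD fat (change -2.92, adjusted p = 0.0410). Of the relatives of Cd34, Podxl, podocalyxin, fell by 0.69 (adjusted p = 0.0316) and Podxl2 changed by 0.38 (adjusted p = 0.121). Of 4 tested CAP-domain proteins related to Pi16, none passed, among them Crispld2 (-0.17, adjusted p = 0.320) and Glipr2 (0.29, adjusted p = 0.431).

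The general fibroblast list held 20 tested genes, with 2 higher, 2 lower and a median of 0.16. That median was 0.29 without LFD replicate 1 and turned to -0.03 without LFD replicate 2, so its direction rests on 1 array. S100a4, a calcium-binding protein that macrophages also express, was 3.16-fold higher at 5.72 and 5.55 in HFD fat, against 4.14 and 3.80 in LFD fat (limma, adjusted p = 0.0191). Serpinf1, which encodes the secreted protein PEDF, was 2.11-fold higher (adjusted p = 0.0172). Fbln1, the matrix protein fibulin-1, was 2.33-fold lower at 1.28 and 1.66 in HFD fat, against 2.69 in both LFD samples (adjusted p = 0.0275). Twist2, a mesenchymal transcription factor, fell by 0.60 (adjusted p = 0.0398). The summed level of the list was 673 and 642 times the 75th percentile in HFD fat, against 605 and 543 in LFD fat.

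Markers of other cells moved between the same samples. Of 11 markers of mesothelium, the epithelium that covers visceral fat, 10 were lower and none higher, and their summed level was 14.4 and 11.2 in HFD fat, against 41.3 and 43.4 in LFD fat. Krt18 (change -2.72, limma, adjusted p = 0.0137), Muc16 (-1.72, adjusted p = 0.0137), Krt8 (-1.99, adjusted p = 0.0147) and Wt1 (-1.48, adjusted p = 0.0139) were among them. Of 12 macrophage markers 9 were higher and none lower, with a summed level of 322 and 346 in HFD fat, against 218 and 197 in LFD fat. Cd68, a lysosomal protein of macrophages, changed by 2.28 (adjusted p = 0.0137). The part of mesothelium in the falls of Dpp4, Dlk1, Pdgfra and the CD142+ genes, and that of macrophages in the rises of Zfp423, Capg, Abcg1 and S100a4, was not tested.

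No gene of the mural or endothelial lists passed the test among 11 tested in each, where the medians were -0.03 and 0.09. Leaving out 1 array turned the sign of both, with mural medians of -0.08 to 0.06 and endothelial medians of -0.01 to 0.19. The 2 brightest mural genes were Acta2, smooth muscle actin, which changed by 0.13 (limma, adjusted p = 0.592), and Tagln, by -0.28 (adjusted p = 0.520). The 2 brightest endothelial genes were Cldn5, a tight junction protein, which changed by 0.34 (adjusted p = 0.347), and Egfl7, by 0.03 (adjusted p = 0.865). Other genes of both lists fell by more, such as Myh11 (-0.69) and Emcn (-0.39), and missed the threshold too. These cells share Pdgfrb and Cd34 with the progenitors. The endothelial sum was 66.3 and 77.3 in HFD fat, against 73.3 and 65.9 in LFD fat, and the mural sum was 124 and 116 in HFD fat, against 138 and 104 in LFD fat, so both overlapped. The adipocyte markers that define the tissue were present, with a summed level of 869 and 922 in HFD fat, against 981 and 1107 in LFD fat. Of the 10, 2 were lower, none was higher and 8 missed the threshold, with a median of -0.35. Retn, resistin, changed by -0.90 (limma, adjusted p = 0.0281) and Acvr1c, an activin receptor, by -0.59 (adjusted p = 0.0459). Lep, leptin, is named after its values were seen. It read 5.72 and 5.76 in HFD fat, against 2.81 and 4.32 in LFD fat, and its change of 2.18 missed the threshold (adjusted p = 0.0729).

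**Figure D4:**
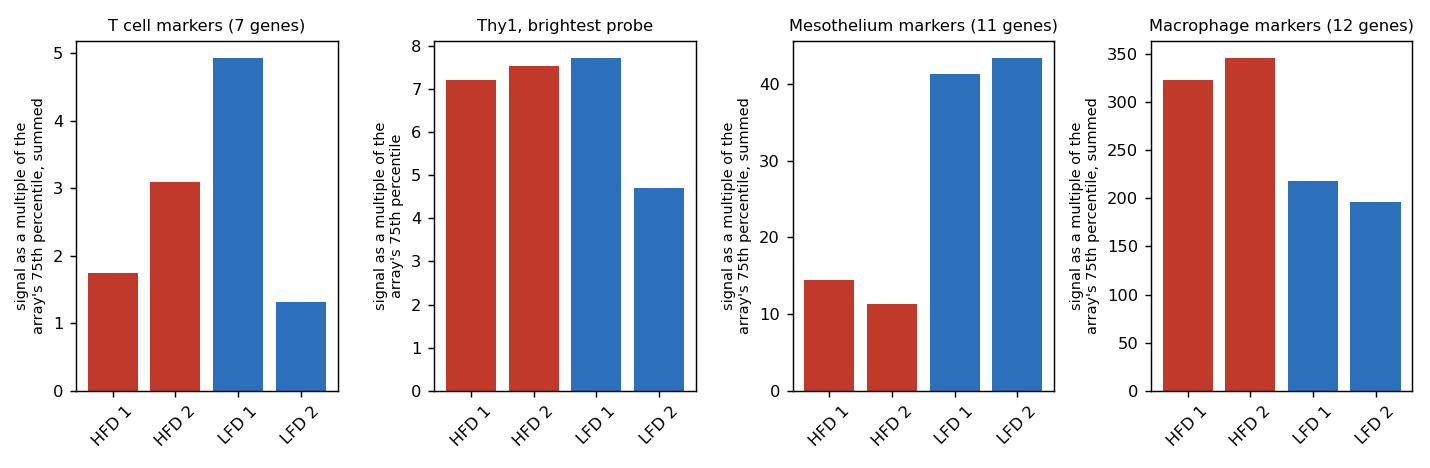
Summed signal of T cell, mesothelium and macrophage markers, and signal of the brightest Thy1 probe, in multiples of the array's 75th percentile (vertical axes, from 0), with HFD arrays left of LFD arrays and each bar 1 array. The mesothelial sums are 14.4 and 11.2 in HFD fat against 41.3 and 43.4 in LFD fat, while the T cell sums of the LFD arrays differ from each other, at 4.93 and 1.32.

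Likeness of pattern was measured as the root mean square distance between the 4 array values of 2 genes, each taken from its own mean. The genes nearest to Dlk1 were 2210016H18Rik (0.0340), Adam33 (0.0392) and Wt1 (0.0419). Nearest to Dpp4 were Cadm4 (0.00887), Amigo2 (0.0181) and Sox6 (0.0301), and nearest to Pdgfra were Hoxd9 (0.00746), Acy1 (0.0185) and Prdx3 (0.0188). Nearest to Zfp423 were Colgalt1 (0.0138), Tex33 (0.0142) and the unnamed transcript TC1678456 (0.0161). With 4 arrays in 2 diets, many genes share such a pattern.

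The promoters of the 4 genes that passed the test show whether they share simple letters in front of their start. They are RefSeq sequences of build GRCm38.p6, from 250 bases before to 50 bases after an annotated start, for Dpp4 (chr2:62412182-62412481, minus strand), Dlk1 (chr12:109452573-109452872, plus strand), Pdgfra (chr5:75152001-75152300, plus strand) and 1 of the starts of Zfp423 (chr8:87804390-87804689, minus strand). Capitals mark 3 motifs searched on both strands. The letters of the GC box were GGGCGG. The letters of the EBF-type motif, which read alike on both strands, were CCCNNGGG. The letters of the TATA box were TATAAA.
Dpp4 promoter: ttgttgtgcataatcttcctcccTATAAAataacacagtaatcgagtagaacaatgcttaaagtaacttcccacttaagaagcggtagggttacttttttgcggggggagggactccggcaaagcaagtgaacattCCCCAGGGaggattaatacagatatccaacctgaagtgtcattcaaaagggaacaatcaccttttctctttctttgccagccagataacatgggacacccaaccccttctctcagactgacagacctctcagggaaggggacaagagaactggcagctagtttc
Dlk1 promoter: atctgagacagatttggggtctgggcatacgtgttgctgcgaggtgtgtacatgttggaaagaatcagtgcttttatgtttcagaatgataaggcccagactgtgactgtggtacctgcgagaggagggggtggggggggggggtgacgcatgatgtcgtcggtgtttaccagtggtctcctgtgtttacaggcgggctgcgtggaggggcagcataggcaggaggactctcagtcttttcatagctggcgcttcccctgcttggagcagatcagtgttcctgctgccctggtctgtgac
Pdgfra promoter: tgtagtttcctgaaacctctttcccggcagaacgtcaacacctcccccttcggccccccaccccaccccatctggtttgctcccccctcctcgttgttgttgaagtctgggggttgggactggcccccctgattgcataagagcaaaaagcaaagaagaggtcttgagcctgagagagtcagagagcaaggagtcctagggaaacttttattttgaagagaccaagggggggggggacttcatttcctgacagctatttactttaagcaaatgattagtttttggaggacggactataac
Zfp423 promoter: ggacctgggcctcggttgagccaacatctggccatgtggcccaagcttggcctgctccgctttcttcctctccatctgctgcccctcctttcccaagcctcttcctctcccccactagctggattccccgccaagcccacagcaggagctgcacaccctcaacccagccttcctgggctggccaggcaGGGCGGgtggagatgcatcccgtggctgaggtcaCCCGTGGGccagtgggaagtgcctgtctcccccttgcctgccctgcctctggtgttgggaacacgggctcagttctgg

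The EBF-type motif is in the printed Dpp4 and Zfp423 promoters and in 13.7% of all 32851 promoters. The table's other start of Zfp423, at chr8:87959546-87959845, holds 0 EBF-type motifs, 2 GC boxes and 65.7% GC. The GC box is in the printed Zfp423 promoter and in 35.7% of all, and TATAAA is in the Dpp4 promoter and in 13.6% of all. In Dpp4 the letters TATAAA lie near the first base of the printed window, far from the annotated start. None of the 3 motifs is in the Dlk1 and Pdgfra windows. GC content was 45.3% for Dpp4, 55.7% for Dlk1, 51.0% for Pdgfra and 65.0% for Zfp423, against a median of 52.7% over all promoters. A match is a description of letters only.

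**Figure D5:**
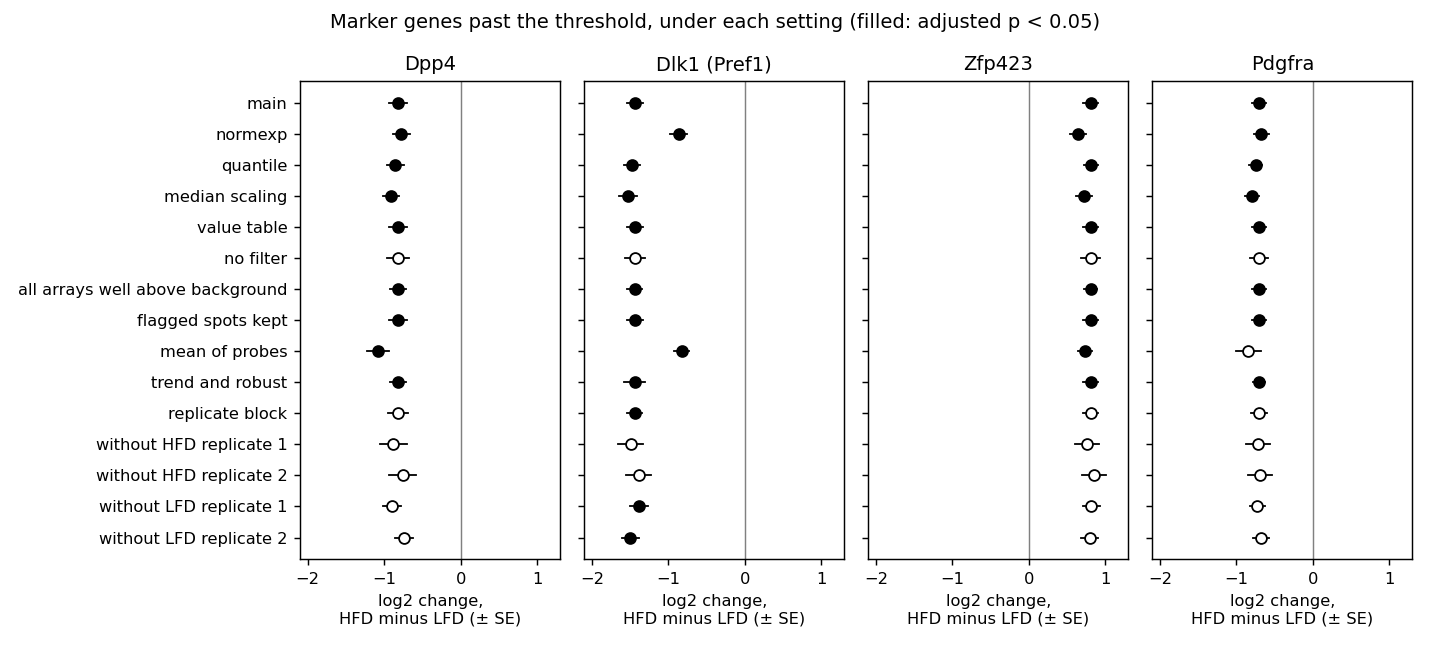
Log2 change of Dpp4, Dlk1, Zfp423 and Pdgfra, HFD minus LFD (horizontal axis, with the SE from limma as a bar), in the analysis reported (main) and under 14 alternatives, 1 per row; filled points passed an adjusted p of 0.05. Dpp4, Dlk1 and Pdgfra lie left of 0 and Zfp423 right of it in every row, while the open points mark lost calls.

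The 4 genes that passed kept their direction under all 14 alternatives run, but most of these could not have reversed it. The other filters, trend and robust eBayes and the replicate block leave the log2 change as it was. The value table and flagged spots kept use nearly the same values. Leaving out 1 array cannot reverse a gene whose diets do not overlap. The log2 changes of the 4 genes ranged from -1.09 to -0.74 for Dpp4, from -1.53 to -0.82 for Dlk1, from -0.84 to -0.68 for Pdgfra and from 0.64 to 0.85 for Zfp423. The -1.09 of Dpp4 and the -0.84 of Pdgfra come from the mean of probes, which takes in a probe not well above background in HFD fat; without that alternative the lower ends were -0.91 and -0.79. The call was kept under 11 of the 14 for Dlk1, 8 for Dpp4, 8 for Zfp423 and 7 for Pdgfra.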

How the data were processed

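RNA of white adipose tissue was hybridised to 1-colour arrays, 2 per diet, with 500 ng of RNA labelled per sample, per the labels' protocols. All arrays were on 1 slide, per the barcodes in the file headers. The deposited spot intensity values are scanner output that Feature Extraction background-subtracted and detrended within each array, per the file headers, with no scaling between arrays. Its version is 11.0.1.1 per the file headers and 11.5.1.1 per the submitters' processing notes. In the deposited value table each entry is a ratio, signal over its array's 75th percentile, found by division; it is linear and uncentred, with medians of 0.130 and 0.131 (HFD) and 0.117 and 0.127 (LFD).

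After control spots were removed, 43379 of 45018 spots remained, for 41174 probes. Spots of a probe were averaged, flagged spots (60 to 115 per array) left out, and none was saturated. Log2 signals, with the 75th percentile of the array subtracted, were fitted in limma 3.58.1 (R 4.3.3; lmFit, eBayes, two-sided) for 26054 probes with over 0.5 of their spots well above background on both arrays of a diet, with Benjamini-Hochberg adjustment and a threshold of 0.05. With 2 residual degrees of freedom, the number of arrays limits the precision. A gene was represented by its brightest tested probe; of 5984 genes with several, 1855 had probes of opposite sign. Symbols were updated by accession through RefSeq for 27668 probes, and 13506 kept the file's name. The files' probe coordinates are mm9. RefSeq promoters were matched by symbol for 7 members. The fit was tested on simulated data.

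Genes to name were every member, from each list the 4 of smallest p past the threshold (the 2 brightest where fewer than 2 passed), and the 3 of most similar pattern. Of these, Ly6c1, Ly6c2, Adgre1, Tyrobp, Fcer1g and the T cell genes are not given singly. Members and lists were chosen with earlier results of these data known. Lists were counted, not tested. Alternatives were normexp (offset 50), quantile and median scaling, the value table, other filters, flagged spots kept, the mean of probes, trend and robust eBayes, a replicate block, and each array left out. A slide block was not possible with 1 slide.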

Additional observations from a re-analysis of the deposited data

How the results depend on the processing

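The 140 recomputed changes of the 10 members kept direction and side of the threshold in 111 cases, lost the call in 22 and reversed in 7. Of 252 list medians, 29 changed sign or moved by more than the replicate spread. Members counted 1 higher and 3 lower under normexp, quantile and median scaling, the value table, the filter on all arrays, flagged spots kept and trend and robust eBayes, and 1 and 2 with the mean of probes. Over all genes, the count higher was 1618 with normexp, 1598 with probes well above background on all arrays and 1826 with trend and robust eBayes, which gave 1808 lower. With no filter on dim probes limma called 0 genes in either direction, against 3384 higher and 2224 lower at an unadjusted p under 0.05 (members 0, against 1 and 3), and the median change of all genes was 0.20, against 0.02. The replicate block gave 220 higher and 208 lower, with members at 0 and 1, Dlk1 (adjusted p = 0.0463). The pairs' deviations correlated at r = -0.0143, over genes that are not independent. The labels give each pair no more than a shared replicate number. Leaving out 1 array gave 9 to 470 higher and 9 to 341 lower, with members at 0 higher (unadjusted, 1 to 2) and 0 to 1 lower; the lone array is assumed to vary like the other diet's, and the cause was not tested. Ly6a reversed to -0.0799 with normexp, -0.0557 with quantile and -0.0754 with median scaling; leaving out 1 array gave -0.162 to 0.188 for Ly6a, -0.0730 to 0.000217 for Gsn and -0.0652 to 0.650 for Thy1. The T cell median was -0.90 without LFD replicate 2 and 0.84 without LFD replicate 1. Dim probes such as those of Dlk1 and Sox9 lie near background, which limits their fold changes.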
